A study of Mus musculus with 8 samples.

Results

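The mitochondrial carrier family Slc25 was examined in the livers of 8 adult male mice, 4 labelled wild type and 4 with a floxed Rictor gene deleted in the liver by albumin-Cre. The members were all genes whose name on the array begins with Slc25a, 46 in number, together with Ucp1 and Ucp3, so that 48 of 19938 measured genes were members. Ucp2 and Slc25a52 were not analysed here. Mice of both groups had fasted for 16 h and had then eaten freely for 3 h when their livers were collected. Rictor is a defining subunit of mTORC2, the kinase complex that phosphorylates Akt in the insulin response. The albumin promoter directs Cre to hepatocytes, so other cells of the liver keep the gene. Strain, littermate status and whether the wild type mice carried the floxed allele or Cre are not given in the sources used here.

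The proteins of this family sit in the inner mitochondrial membrane, with a few in other membranes, and exchange metabolites between the cytosol and the matrix. Each is built from a repeated unit of paired membrane helices, and each carries a narrow range of substrates. In hepatocytes they export citrate for lipid synthesis, move reducing equivalents in the malate-aspartate shuttle, bring ornithine in for the urea cycle, import acylcarnitines for oxidation and exchange ADP for ATP. The uncoupling proteins belong to the same family, and Ucp1 lets protons through the inner membrane of brown fat.

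One array was hybridised per mouse, and values are RMA expression values of 1 probe set per gene on the log2 scale, as the authors deposited them. Where a gene had several probe sets, the one with the highest mean was used. Differences are log2 differences, knockout minus wild type, with their standard error (SE) and n = 4 in each group. They come from a limma fit over all 21789 probe sets that carry 1 gene symbol, and p-values were adjusted over all of these by the Benjamini-Hochberg method with 0.05 as the threshold. An exact permutation test of 4 arrays against 4 cannot give a p below 0.0286. These are whole livers, so fewer cells of a type and less RNA per cell cannot be told apart.

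The Rictor probe set ranged from 9.23 to 9.64 on the wild type arrays and from 9.15 to 9.68 on the knockout arrays, a difference of 0.05 with a 95% interval from -0.23 to 0.32. It does not separate the groups, which exons its probes cover was not examined, and every direction here rests on the labels. Of the hepatocyte markers 5 of 6 were measured, and the log2 of their summed level lay between 16.30 and 16.35 in wild type and between 16.34 and 16.38 in knockout livers. The arrays numbered 1 stood apart from the other arrays of their own groups. The leading principal component accounted for 35.8% of the variance, and on it the other wild type arrays lay between -0.344 and -0.298 and the other knockout arrays between 0.410 and 0.458, while wild type array 1 lay at -0.0293 and knockout array 1 at -0.310. Knockout array 1 thus lay within the range of wild type arrays 2 to 4. Its mean correlation was 0.995 with the wild type arrays and 0.992 with its own group. Igfbp1 read 10.04 on wild type array 1 and from 7.29 to 7.40 on the others of its group. It read 7.76 on knockout array 1 and from 9.65 to 10.10 on the other knockout arrays. The cause was not tested. Results are therefore also given without the arrays numbered 1 where the call changes.

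No member passed the threshold with all 8 arrays at equal weights. The lowest limma adjusted p was 0.140, for Slc25a30, and 0% of all 19938 genes passed. Without adjustment 10 members had a limma p under 0.05. Of these, 5 had a higher mean in knockout livers, which is 10.4% of the members against 3.84% of all genes, and 5 had a lower mean, again 10.4% against 6.61% of all genes. Dim genes reach such a p less often. A fit limited to probe sets above the median mean gave 10 of 33 members beside 1584 of 9903 genes. The median difference over the 48 members was -0.02, as it was over all genes (-0.02), and the median size of the difference was 0.081 against 0.082. Groups that did not overlap were found for 3 members, beside 4.42% of all genes. A higher mean was seen for 22 members and a lower mean for 26.

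**Figure D1:**
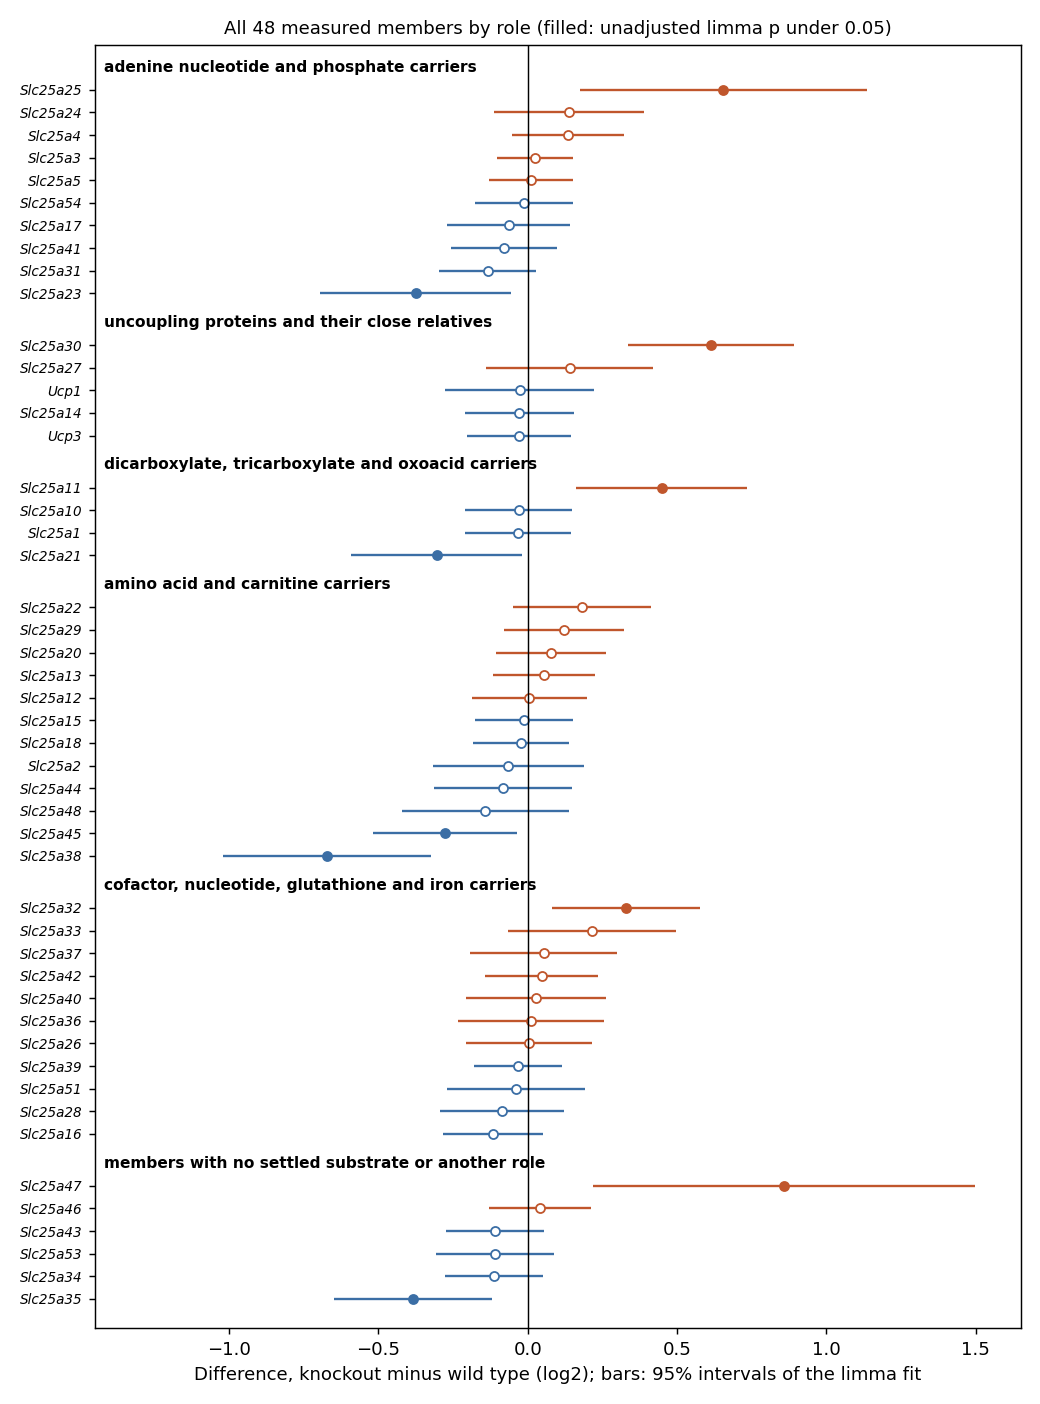
The log2 difference between knockout and wild type livers (horizontal axis) for each of the 48 measured members, grouped by role, with 95% intervals from the limma fit. Filled points have an unadjusted limma p under 0.05, and they are 5 members to the right of 0 and 5 to the left, with Slc25a47 at 0.86 and Slc25a38 at -0.67 as the outermost.

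Among the uncoupling proteins and their relatives Slc25a30 stood apart, with all knockout arrays above all wild type arrays. Slc25a30 is a relative of the uncoupling proteins that was named for its presence in kidney. Slc25a30 read 10.31, 10.24, 10.48 and 10.50 on wild type arrays 1 to 4 and 10.79, 10.75, 11.28 and 11.16 on knockout arrays 1 to 4. The gap between the groups lay between wild type array 4 and knockout array 2. The difference was 0.61 (SE 0.13; limma adjusted p = 0.140; exact permutation p = 0.0286), a 1.53-fold higher mean in knockout livers. Groups that do not overlap in this direction were found for 1.81% of all genes. Leaving out single arrays gave from 0.52 to 0.70.

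The brown fat protein Ucp1 read 5.11, 5.28, 5.40 and 5.39 in wild type and 4.96, 5.44, 5.49 and 5.18 in knockout livers, and the ranges overlapped. The difference was -0.03 (SE 0.11; limma adjusted p = 0.959). Ucp3, the uncoupling protein of skeletal muscle, read 6.17, 5.95, 6.02 and 6.06 and 5.92, 6.16, 6.06 and 5.95, a difference of -0.03 (SE 0.08; limma adjusted p = 0.932). Both probe sets had means below the median over all probe sets tested. The other measured relatives, Slc25a14 and Slc25a27, differed by -0.03 and 0.14. Knockout array 1 was the lowest of all arrays in Ucp1, Ucp3 and Slc25a27.

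Slc25a38 had the largest difference toward lower values. It encodes a carrier that brings glycine into the matrix, where heme synthesis begins. Slc25a38 read 11.27, 11.37, 11.19 and 11.14 in wild type and 11.14, 10.46, 10.20 and 10.49 in knockout livers. Knockout array 1 lay at 11.137, just below wild type array 4 at 11.143, while the other knockout arrays lay well below every wild type array. The difference was -0.67 (SE 0.16; limma adjusted p = 0.157; exact permutation p = 0.0286), a 1.59-fold lower mean. Groups that do not overlap in this direction were found for 2.61% of all genes. Without knockout array 1 the difference was -0.86 and passed (limma adjusted p = 0.00199), beside 3.3% of all genes called lower. Leaving out the knockout array nearest the wild type values must widen the difference.

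Alas2, the erythroid enzyme of the first step of heme synthesis, also had knockout arrays 2 to 4 below all wild type arrays. It read 10.29, 10.91, 10.79 and 10.41 in wild type and 10.89, 10.01, 10.02 and 10.06 in knockout livers, with knockout array 1 inside the wild type range, a difference of -0.36 (SE 0.20; limma adjusted p = 0.544). Alas1, the enzyme of the same step in liver, read 13.40, 13.62, 13.78 and 13.53 in wild type and 13.54, 13.58, 13.39 and 13.63 in knockout livers. Its groups overlapped without that order, and the difference was -0.05 (SE 0.08; limma adjusted p = 0.885). Of the erythroid markers 2 of 6 were measured, and the log2 of their summed level lay between 10.42 and 11.00 in wild type and between 10.19 and 10.99 in knockout livers. The other measured marker, Slc4a1 of the red cell membrane, differed by 0.01 (SE 0.11; limma adjusted p = 0.985). No marker is at 0 on this scale, and the part of erythroid RNA in the result for Slc25a38 was not tested. The mitochondrial iron carriers Slc25a37 and Slc25a28, which also serve heme and iron-sulfur cluster synthesis, differed by 0.05 (SE 0.11; limma adjusted p = 0.912) and -0.09 (SE 0.10; limma adjusted p = 0.800).

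**Figure D2:**
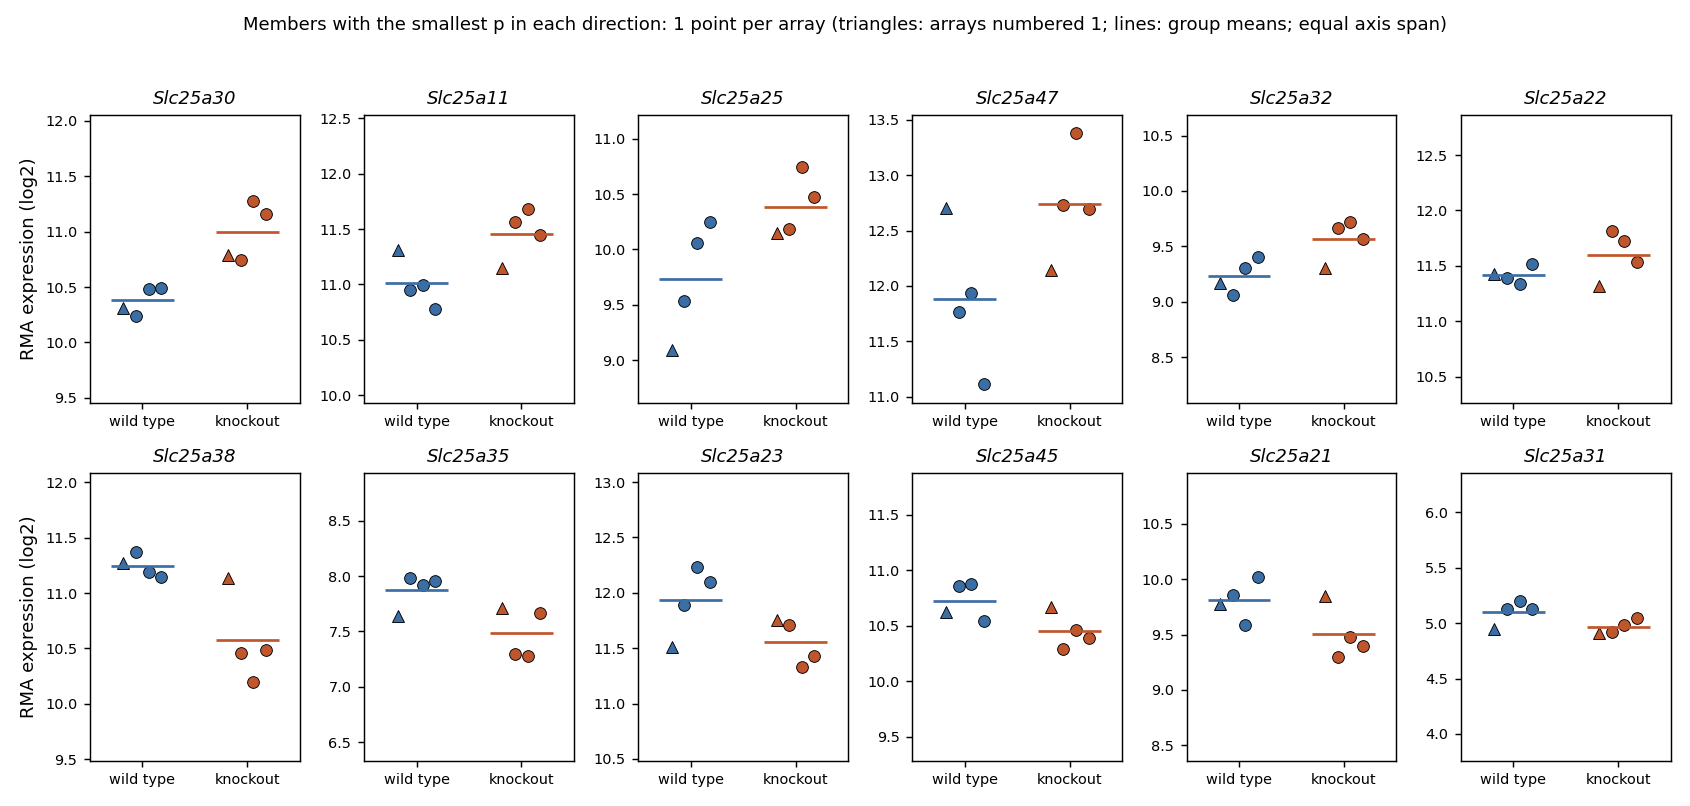
RMA expression (log2, vertical axis with the same span in every panel) of the 6 members with the smallest p in each direction, 1 point per array, with lines at the group means and triangles for the arrays numbered 1. Slc25a30 and Slc25a38 have no overlap between the groups, and in Slc25a38 the knockout triangle at 11.14 lies next to the wild type points.

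The promoters of these 2 members are shown because they had the lowest p among higher and among lower members. Each line gives the 250 bases before the RefSeq start in GRCm38.p6, read 5′ to 3′ on the gene's strand, and capitals mark a match to a searched motif. The Slc25a30 window is chr14:75787038-75787287 on the minus strand, and the Slc25a38 window is chr9:120110132-120110381 on the plus strand.
Slc25a30: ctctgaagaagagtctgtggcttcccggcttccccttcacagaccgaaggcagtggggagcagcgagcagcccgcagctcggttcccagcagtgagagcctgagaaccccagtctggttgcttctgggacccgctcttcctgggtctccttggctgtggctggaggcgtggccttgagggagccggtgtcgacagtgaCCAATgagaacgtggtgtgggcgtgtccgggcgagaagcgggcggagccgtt
Slc25a38: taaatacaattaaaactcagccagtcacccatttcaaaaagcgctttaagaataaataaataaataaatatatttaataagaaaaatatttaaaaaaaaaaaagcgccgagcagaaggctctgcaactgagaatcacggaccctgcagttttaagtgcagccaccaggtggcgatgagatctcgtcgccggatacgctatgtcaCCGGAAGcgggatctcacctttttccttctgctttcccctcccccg
Slc25a30 holds a CCAAT box that begins 52 bases before the start. Slc25a38 holds the core CCGGAAG, which ETS factors bind, beginning 46 bases before the start.

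A promoter window was found for 38 of the 48 members. Matches were sought on both strands, overlapping ones included, for GTAAACA (the FoxO core), AAGGTCA (a half-site of the estrogen-related receptors), CACGTG (an E-box), CCAAT and CCGGAAG. The last pair was added after these sequences had been seen. The FoxO core was in the window of 0 members and in 3.17% of all 32851 windows, and AAGGTCA was in 1 member, Slc25a34, and in 4.08% of all windows. CACGTG was in 7 members (18.4%; 6.02% of all windows), none of them among the 8 members with an unadjusted p under 0.05 and a window. CCAAT was in 18 members (47.4%; 33.8% of all windows) and in 6 of those 8. CCGGAAG was in 6 members (15.8%; 6.91% of all windows) and in 1 of those 8, Slc25a38. A gene with several starts has several windows, so the shares of members and of windows are not on one footing, and a match is a description of letters only.

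Of the carriers of dicarboxylates, tricarboxylates and oxoacids, 4 were measured and none passed by limma at equal weights, with 1 higher and 1 lower at an unadjusted limma p under 0.05. Slc25a11 exchanges malate for oxoglutarate and is a step of the malate-aspartate shuttle. Slc25a11 read 11.31, 10.95, 11.00 and 10.78 in wild type and 11.15, 11.57, 11.68 and 11.44 in knockout livers. Wild type array 1 was the highest of its group and lay above knockout array 1, the lowest of its own, so the groups overlapped through these arrays. The difference was 0.45 (SE 0.13; limma adjusted p = 0.249; exact permutation p = 0.0571). Without knockout array 1, the one nearest the wild type mean, it was 0.55 and passed (limma adjusted p = 0.0232), beside 1.1% of all genes called higher.

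Slc25a21 carries oxoadipate, an intermediate of lysine and tryptophan breakdown. It read 9.77, 9.86, 9.58 and 10.02 in wild type and 9.85, 9.30, 9.48 and 9.39 in knockout livers, with knockout array 1 among the wild type values and the other knockout arrays below all of them. The difference was -0.30 (SE 0.13; limma adjusted p = 0.424; exact permutation p = 0.0857).

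The citrate carrier Slc25a1, which supplies cytosolic acetyl-CoA for fatty acid synthesis, read 12.16, 12.07, 12.09 and 11.86 in wild type and 12.09, 11.99, 12.03 and 11.94 in knockout livers. Its difference was -0.03, with a 95% interval from -0.21 to 0.14 (limma adjusted p = 0.925). Slc25a10, the dicarboxylate carrier that exchanges malate or succinate for phosphate, read 12.06, 12.14, 12.16 and 11.96 and 12.02, 12.14, 12.14 and 11.90. Its difference was also -0.03, with a 95% interval from -0.21 to 0.15 (limma adjusted p = 0.932). In Slc25a1 all knockout values lay within the wild type range, and in Slc25a10 all but that of array 4 did.

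The adenine nucleotide and phosphate carriers held a pair of related members with opposite signs. Slc25a25 and Slc25a23 are calcium-regulated exchangers of ATP-Mg for phosphate, which set the adenine nucleotide content of the matrix. Slc25a25 read 9.09, 9.54, 10.06 and 10.25 in wild type and 10.15, 10.18, 10.75 and 10.47 in knockout livers, and Slc25a23 read 11.51, 11.89, 12.24 and 12.09 and 11.76, 11.71, 11.33 and 11.43. In Slc25a25 wild type array 4 lay above knockout arrays 1 and 2, and wild type array 1 was the lowest of all. In Slc25a23 wild type array 1 lay below knockout arrays 1 and 2.

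The difference of Slc25a25 was 0.66 (SE 0.22; limma adjusted p = 0.313; exact permutation p = 0.0857). Leaving out single arrays gave from 0.44, without wild type array 1 (limma adjusted p = 0.321), to 0.83, without wild type array 4. The difference of Slc25a23 was -0.38 (SE 0.15; limma adjusted p = 0.382; exact permutation p = 0.114), and -0.52 without wild type array 1 (limma adjusted p = 0.0879). The further relatives Slc25a24 and Slc25a41 differed by 0.14 and -0.08 (limma adjusted p = 0.717 and 0.781).

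The main carriers of oxidative phosphorylation had differences near 0. Slc25a3, which imports phosphate for ATP synthase, read 13.09, 13.03, 12.97 and 12.98 in wild type and 13.06, 13.06, 13.05 and 13.01 in knockout livers. Its difference was 0.02, with a 95% interval from -0.10 to 0.15 (limma adjusted p = 0.923). Slc25a5, the adenine nucleotide translocase found in most tissues, read 13.21, 13.16, 13.15 and 13.07 and 13.23, 13.22, 13.11 and 13.06. Its difference was 0.01, with a 95% interval from -0.13 to 0.15 (limma adjusted p = 0.971), and its other probe sets gave 0.03 and 0.01. The last of these read nearly the same on every array as the one used, so it may not be a separate measurement.

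Slc25a4, the translocase of heart and muscle, read 7.68, 7.49, 7.56 and 7.51 in wild type and 7.54, 7.77, 7.68 and 7.80 in knockout livers, a difference of 0.13 (SE 0.09; limma adjusted p = 0.614). Slc25a31, the translocase of testis, read 4.95, 5.13, 5.20 and 5.13 and 4.92, 4.92, 4.98 and 5.05, a difference of -0.13 (SE 0.08; limma adjusted p = 0.545; exact permutation p = 0.0857). The groups overlapped in both genes, in Slc25a31 through wild type array 1. These translocases are close in sequence, and whether a probe set takes up RNA of another translocase was not tested.

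None of the amino acid and carnitine carriers passed by limma at equal weights. They had 12 members, 5 with a higher and 7 with a lower mean, and Slc25a38 and Slc25a45 were the ones with an unadjusted limma p under 0.05. Slc25a45 read 10.63, 10.86, 10.87 and 10.54 in wild type and 10.67, 10.29, 10.46 and 10.39 in knockout livers, with knockout array 1 inside the wild type range. The difference was -0.28 (SE 0.11; limma adjusted p = 0.389; exact permutation p = 0.0857).

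Slc25a22, a glutamate carrier, read 11.43, 11.39, 11.34 and 11.51 in wild type and 11.32, 11.81, 11.73 and 11.54 in knockout livers. Knockout array 1 was the lowest of all 8 arrays, and the other knockout arrays lay above every wild type array. The difference was 0.18 (SE 0.11; limma adjusted p = 0.567; exact permutation p = 0.200). Without knockout array 1 it was 0.27 (limma adjusted p = 0.103).

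The aspartate-glutamate carriers complete the malate-aspartate shuttle beside Slc25a11. Slc25a13, known as citrin and the main form in liver, read 12.40, 12.19, 12.19 and 12.27 in wild type and 12.18, 12.38, 12.31 and 12.39 in knockout livers, a difference of 0.05 with a 95% interval from -0.12 to 0.22 (limma adjusted p = 0.856). Slc25a12, known as aralar, read 10.46, 10.46, 10.52 and 10.43 and 10.40, 10.43, 10.66 and 10.41, a difference of 0.01 (SE 0.09; limma adjusted p = 0.990). Knockout array 3 was the highest in Slc25a12, away from the other arrays of its group.

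Slc25a15 exchanges ornithine for citrulline in the urea cycle. It read 11.90, 11.99, 11.94 and 12.03 in wild type and 11.83, 11.92, 12.02 and 12.04 in knockout livers, a difference of -0.01 with a 95% interval from -0.18 to 0.15 (limma adjusted p = 0.967). Slc25a20, which imports acylcarnitines for fatty acid oxidation, read 11.70, 11.59, 11.70 and 11.58 and 11.90, 11.63, 11.72 and 11.64, a difference of 0.08 with a 95% interval from -0.11 to 0.26 (limma adjusted p = 0.794). Knockout array 1 was the highest array in Slc25a20, and without it the difference was 0.018.

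Among the carriers of cofactors, nucleotides, glutathione and iron, 1 of 11 measured members had an unadjusted limma p under 0.05. This was Slc25a32, which carries folate and the flavin cofactor FAD. Slc25a32 read 9.17, 9.06, 9.30 and 9.40 in wild type and 9.31, 9.67, 9.72 and 9.56 in knockout livers, with wild type array 4 above knockout array 1 and below the other knockout arrays. The difference was 0.33 (SE 0.11; limma adjusted p = 0.326; exact permutation p = 0.0571). Without knockout array 1, the one nearest the wild type mean, it was 0.41 and passed (limma adjusted p = 0.0426), beside 1.1% of all genes called higher.

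Slc25a42, a carrier of coenzyme A, read 10.63, 10.59, 10.78 and 10.61 in wild type and 10.67, 10.79, 10.74 and 10.59 in knockout livers, a difference of 0.05 (SE 0.09; limma adjusted p = 0.899). Slc25a39, needed for glutathione import into mitochondria, read 12.90, 12.76, 12.94 and 12.81 and 12.85, 12.82, 12.88 and 12.73, a difference of -0.03 (SE 0.07; limma adjusted p = 0.911). The groups overlapped in both. The pyrimidine nucleotide carrier Slc25a36 differed by 0.01 on the probe set used and by 0.12 on a dimmer one, and Slc25a40 by 0.03 and 0.02.

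Slc25a47, a carrier found mainly in liver, had the largest difference of the family. It read 12.70, 11.76, 11.94 and 11.11 in wild type and 12.14, 12.73, 13.38 and 12.69 in knockout livers. The spread within the groups was also the widest of the family, with an SD of 0.66 in wild type and 0.51 in knockout livers. Wild type array 1 lay with the knockout arrays, and knockout array 1 lay between wild type arrays 2 to 4 and knockout arrays 2 to 4. The difference was 0.86 (SE 0.29; limma adjusted p = 0.317; exact permutation p = 0.0857), a 1.81-fold higher mean.

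Single arrays moved Slc25a47 from 0.60, without wild type array 4, to 1.13, without wild type array 1. Slc25a35, whose substrate is not settled, read 7.64, 7.98, 7.92 and 7.95 in wild type and 7.72, 7.29, 7.28 and 7.67 in knockout livers. Wild type array 1 was the lowest of its group and it lay below knockout arrays 1 and 4, which is where the groups overlapped. The difference was -0.39 (SE 0.12; limma adjusted p = 0.280; exact permutation p = 0.0857).

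The remaining 23 members had differences from -0.14 to 0.21, of which 9 were above and 14 below 0, and limma adjusted p-values of 0.586 or more. Slc25a43 is named because its groups did not overlap, a choice made after its values were seen. Slc25a43 read 7.13, 7.29, 7.20 and 7.13 in wild type and 7.08, 7.13, 7.00 and 7.11 in knockout livers, a difference of -0.11 (SE 0.08; limma adjusted p = 0.640). The margin was narrow, with wild type array 4 at 7.133 and knockout array 2 at 7.128. Of all members 33 had a probe set mean above the median over all probe sets tested, and the 10 members with an unadjusted limma p under 0.05 were all among them. In a fit limited to probe sets above that median, 1584 of 9903 genes had such a p.

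**Figure D3:**
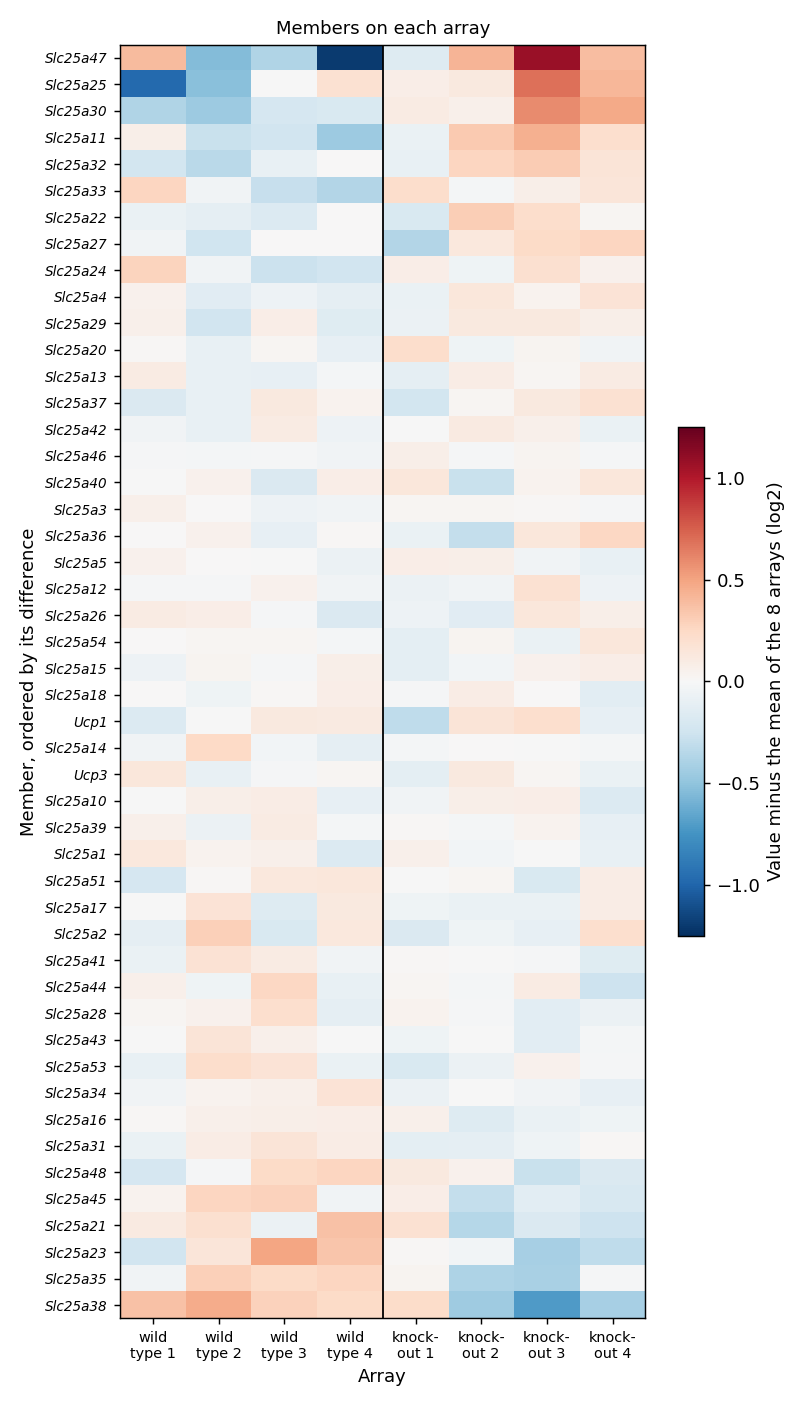
Each measured member on each of the 8 arrays, as its value minus its mean over the arrays (log2, colour scale), ordered by the difference between the groups. Slc25a47, Slc25a25 and Slc25a30 at the top and Slc25a38 at the bottom differ most in colour between the groups, while wild type array 1 in Slc25a47 (12.70) and knockout array 1 in Slc25a38 (11.14) have the colour of the other group.

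In the 10 members with an unadjusted limma p under 0.05, knockout array 1 lay nearer to the mean of wild type arrays 2 to 4 than to that of knockout arrays 2 to 4 in 8. Wild type array 1 lay nearer to the mean of knockout arrays 2 to 4 in 4, namely Slc25a11, Slc25a35, Slc25a47 and Slc25a23. When limma weighted the arrays, knockout array 1 having the lowest weight at 0.467, 7 members passed. Slc25a11, Slc25a25, Slc25a30, Slc25a32 and Slc25a47 were higher and Slc25a35 and Slc25a38 lower, beside 1.31% of all genes called higher and 2.23% called lower. Slc25a30 and Slc25a38 had the lowest p there (differences of 0.75 and -0.82; limma adjusted p = 0.0115 for both).

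Without knockout array 1 there were 4 members past the threshold, of which Slc25a11, Slc25a30 and Slc25a32 were higher and Slc25a38 lower, beside 1.1% and 3.3% of all genes. Without wild type array 1 there were 0 members past it by limma, beside 0.231% of all genes called higher and 0.0652% called lower. In that fit 13 of the 48 members had an unadjusted limma p under 0.05, beside 2435 of all 19938 genes. Without both arrays 9 members passed, beside 2.39% and 5.08% of all genes called higher and lower. Of these, Slc25a11, Slc25a30, Slc25a32 and Slc25a47 were the 4 higher and Slc25a21, Slc25a23, Slc25a35, Slc25a38 and Slc25a45 the 5 lower. In that fit Slc25a47 differed by 1.33 and Slc25a11 by 0.65 (limma adjusted p = 0.00162 and 0.00135), and Slc25a23 by -0.58 (limma adjusted p = 0.00665), while Slc25a25 differed by 0.52 and did not pass (limma adjusted p = 0.0902). The fits with weights or without the arrays numbered 1 lean on the labels or on a choice made with the data known, so they are no separate test of a member.

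**Figure D4:**
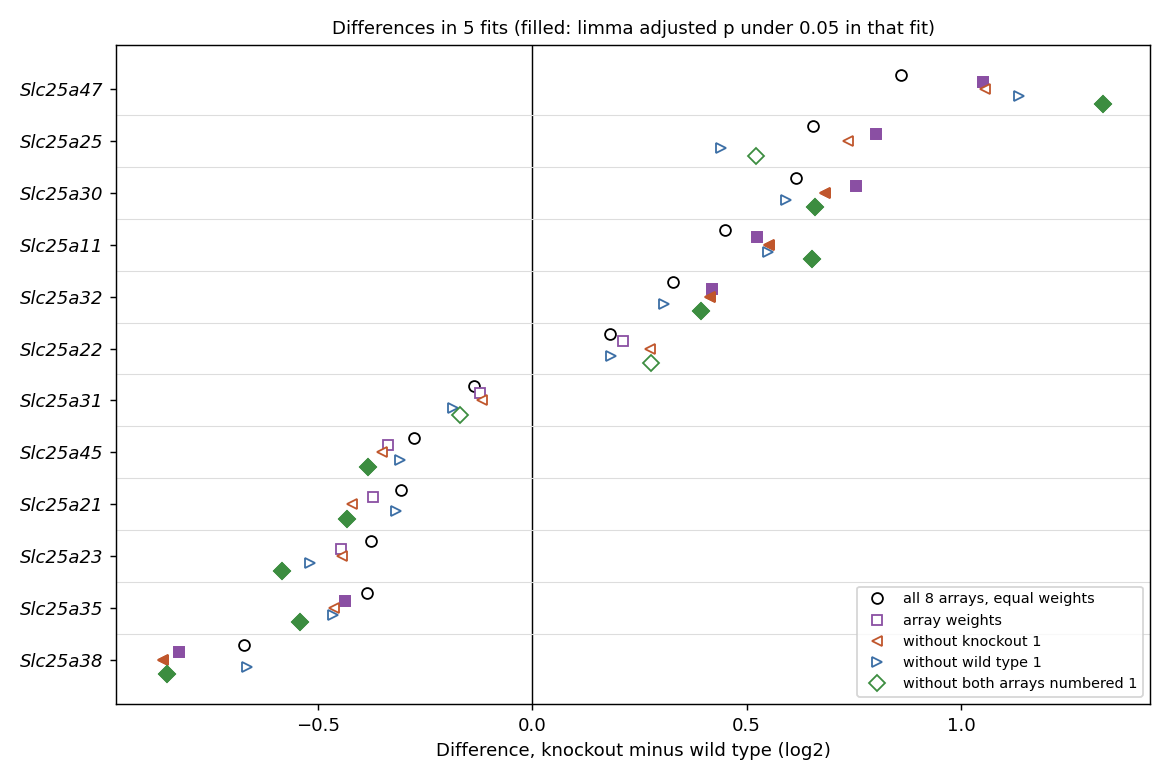
The log2 difference between knockout and wild type livers (horizontal axis) of the 12 members with the smallest p, in 5 fits that differ in the arrays used or their weights. Filled symbols passed the limma threshold in that fit, no black circle (all 8 arrays, equal weights) is filled, and Slc25a47 moves from 0.86 to 1.33 when both arrays numbered 1 are left out.

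Carrier proteins reach the inner membrane through their own import route, in which Tomm70a receives them at the outer membrane and the TIM22 complex inserts them. Of the 13 genes listed for this route 12 were measured, 8 with a higher and 4 with a lower mean, and none passed by limma at equal weights. The 3 with an unadjusted limma p under 0.05 were all higher, 25% of the list against 3.84% of all genes, with 0% lower against 6.61%. The list's median difference was 0.05 against -0.02 over all genes. Tomm20, another receptor of the outer membrane, read 9.71, 9.56, 9.27 and 9.23 in wild type and 9.82, 9.77, 10.15 and 9.90 in knockout livers. The groups did not overlap, and the difference was 0.47 (SE 0.13; limma adjusted p = 0.224). Tomm70a read 10.04, 9.92, 10.02 and 10.01 in wild type and 10.12, 10.23, 10.46 and 10.49 in knockout livers, also without overlap, a difference of 0.33 (SE 0.10; limma adjusted p = 0.276). With array weights both passed (limma adjusted p = 0.0398 and 0.0278). Groups apart in this direction were found for 1.81% of all genes, and 1.31% were called higher with array weights.

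The enzymes that work with the carriers in the shuttles, citrate export, the urea cycle and acylcarnitine handling were a list of 19, of which 17 were measured. A higher mean was seen in 11 and a lower mean in 6, 0 passed by limma at equal weights, and 1 had an unadjusted limma p under 0.05. It was higher, which is 5.88% of the list against 3.84% of all genes, with 0% lower against 6.61%. The list's median difference was 0.05 against -0.02 over all genes. The gene with that p was Gpd2, the mitochondrial enzyme of the glycerol phosphate shuttle. It read 10.09, 9.91, 10.36 and 10.18 in wild type and 10.44, 10.53, 11.07 and 10.46 in knockout livers, without overlap. The difference was 0.49 (SE 0.15; limma adjusted p = 0.252; 0.0388 in the weighted fit). Groups apart in this direction were found for 1.81% of all genes. Arg1, the arginase of the urea cycle, differed by 0.19 (SE 0.11; limma adjusted p = 0.543).

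Of 22 listed transporters of the mitochondrial membranes outside the family 18 were measured, 7 with a higher and 11 with a lower mean, and 0 passed by limma at equal weights. An unadjusted limma p under 0.05 was found for 2 higher genes, 11.1% of the list against 3.84% of all genes. It was found for 3 lower genes, 16.7% against 6.61%. The list's median difference was -0.06 against -0.02 over all genes. Tspo, an outer membrane protein that binds cholesterol, read 9.52, 9.18, 9.17 and 9.07 in wild type and 9.70, 9.84, 10.06 and 9.68 in knockout livers. The groups did not overlap, and the difference was 0.59 (SE 0.12; limma adjusted p = 0.140; 0.0150 in the weighted fit). Groups apart in this direction were found for 1.81% of all genes. Mcu, the pore of the mitochondrial calcium uniporter, read 9.25, 9.36, 9.44 and 9.50 in wild type and 9.32, 8.93, 9.03 and 8.92 in knockout livers. Knockout array 1 lay among the wild type values, and the difference was -0.34 (SE 0.11; limma adjusted p = 0.291; 0.0423 in the weighted fit).

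Markers of other cells that whole liver can hold were measured on the same arrays, and none of any list passed by limma at equal weights. Each list is given as the log2 of its summed level, and every list had overlapping groups. The adipocyte list, with 5 of 5 measured, lay between 10.10 and 10.48 in wild type and between 9.36 and 10.51 in knockout livers, where knockout array 1 was the highest. This sum was carried by Pparg, which hepatocytes also express and which differed by -0.77 (limma adjusted p = 0.326), while Adipoq, Plin1, Lep and Cidea differed by 0.05, -0.07, -0.04 and 0.05. The cholangiocyte list, with 4 of 5 measured, lay between 9.94 and 10.84 in wild type and between 9.86 and 10.53 in knockout livers. Its brightest gene was Sox9, and its members went different ways, with Sox9 and Epcam at -0.44 and -0.46 and Krt19 and Krt7 at 0.02 and 0.11. The lymphocyte list, with 5 of 6, lay between 8.85 and 9.14 and between 8.72 and 8.97. In these sums, as in Slc25a38 and Alas2, knockout array 1 lay above the other knockout arrays, and their part in the differences of the carriers was not tested.

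The Kupffer cell and macrophage list, with 8 of 8 measured, lay between 12.39 and 13.25 in wild type and between 12.60 and 13.47 in knockout livers. The endothelial list, with 6 of 6, lay between 13.08 and 13.47 and between 13.14 and 13.43. The stellate cell list, with 6 of 6, lay between 13.17 and 13.50 and between 13.16 and 13.37. The muscle list, which bears on Slc25a4 and Ucp3, had 4 of 4 measured and lay between 8.89 and 9.07 and between 8.88 and 9.14.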

How the data were processed

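Liver RNA of 8 mice was hybridised to Affymetrix Mouse Gene 1.0 ST arrays, 1 per mouse, after labelling of 100 ng of total RNA, per the labels' protocols. The deposited values were taken as log2 expression per probe set. RMA, Partek and Affymetrix Expression Console appear in the submitters' processing notes with no version or role. RMA as usually run normalises between arrays, so a shift common to most genes may be hidden, and the deposited array medians still ran from 6.90 to 7.03. The base was read from the range of the values, and no depth or detection call was used. No genome build for the probe sets was given in the sources. Precision is limited by the number of arrays.

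Of 35556 probe sets, 21789 had 1 gene symbol in the platform annotation, 1621 had several, and 12146 had none. Symbols were updated by Entrez identifier for 21698 of them (RefSeq, GRCm38.p6). They represent 19938 genes, of which 999 have several probe sets. Differences were fitted by the lmFit and eBayes functions of limma 3.58.1 under R 4.3.3, with the variance trended on the mean, two-sided, with no covariate and no filter. The fit was tested on simulated data. Alternatives were quantile normalisation, array weights, a filter at the median mean, no trend, probe sets averaged per gene, the replicate number as a block, and arrays left out.

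The values of every array were given for the members with the 6 smallest p-values in each direction and for 18 members of main liver pathways or uncoupling, of which Ucp2 was not analysed here. From each partner list the pair of genes with the smallest p was named. Members, lists and fits were chosen with earlier results of these data known. A planned printing of proteins was replaced by promoters from RefSeq. The labels name no batch.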

Additional observations from a re-analysis of the deposited data

Results flagged for a closer look

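Slc25a12 on knockout array 3 read 10.66, against 10.40 to 10.43 on the other knockout arrays. By Dixon's test of the gap against the range this array stood away from its group. It was the 1 such case among 96 groups of 4 arrays examined over the 48 members, where chance gives about 5% of groups.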

How the results depend on the processing

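All results rest on 4 arrays per group. The 15 members with means below the median over all probe sets tested had differences of at most 0.14 in size. Whether low brightness made these differences small was not tested. The count of genes past the threshold was 0 at equal weights with all arrays. It was 707 with array weights and 1489 without both arrays numbered 1, and 0 to 877 when a single array was dropped, with 59 without wild type array 1 and 877 without knockout array 1. For the members the counts were 7, 9 and from 0 to 4, and for the 47 genes of the partner lists 7, 8 and from 0 to 6. Quantile normalisation, the filter at the median mean, no trend and averaged probe sets gave 0 in each case. A replicate block also gave 0 members. With that block 9 members had an unadjusted limma p under 0.05, beside 2102 of all 19938 genes. The deposited values of any pair of arrays correlated at 0.991 to 0.996. The correlations used to ask about pairing were not those of the deposited values. For same-numbered arrays they were -0.0930, -0.125, -0.0400 and 0.0738, and 1 of the 4 numbers was its own best match. The numbers were therefore not taken as pairs.

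Of the 48 members, 32 kept their direction in every alternative run, among them the 12 with the smallest p. The direction turned in 16 members, whose main differences were at most 0.065 in size. With single arrays left out, Slc25a2 ranged from -0.15 to 0.022, Slc25a37 from -0.0012 to 0.14, Slc25a1 from -0.094 to 0.0048, Ucp3 from -0.076 to 0.011, Slc25a10 from -0.070 to 0.020, Slc25a51 from -0.12 to 0.016, Slc25a14 from -0.071 to 0.051, Slc25a18 from -0.058 to 0.017, Slc25a40 from -0.030 to 0.12, Ucp1 from -0.10 to 0.074, Slc25a15 from -0.042 to 0.026, Slc25a54 from -0.063 to 0.025, Slc25a5 from -0.015 to 0.042, Slc25a36 from -0.071 to 0.11, Slc25a12 from -0.056 to 0.031 and Slc25a26 from -0.054 to 0.052. Array weights gave 0.014 for Ucp1, 0.012 for Slc25a15, 0.0036 for Slc25a54 and -0.023 for Slc25a5. Without both arrays numbered 1 the values were 0.046 for Ucp3, -0.011 for Slc25a40, 0.013 for Ucp1, 0.0037 for Slc25a15 and 0.024 for Slc25a54. Quantile normalisation gave 0.0098 for Slc25a54. The cause of these changes was not tested.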
